A study of Mus musculus with 19 samples.

Results

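The fibroblast growth factor (FGF) genes were read from RNA-seq of mouse embryonic fibroblasts (MEF), prostate tissue and renal grafts of reprogrammed cells. They were all the symbols for secreted FGFs, their intracellular homologues, FGF receptors and the Sprouty and Spred feedback inhibitors in the deposited tables, 34 of 23284 genes. The 34 genes comprise 15 paracrine ligands, 3 endocrine ligands, 4 intracellular homologues, 5 receptors and 7 feedback inhibitors.

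Paracrine FGFs bind heparan sulfate and a receptor tyrosine kinase on neighbouring cells, and the receptor signals through the adaptor FRS2 to the ERK cascade. ERK induces Sprouty and Spred genes, whose products damp the same cascade. In the developing prostate, mesenchymal FGF7 and FGF10 act on the IIIb form of FGFR2 in the epithelium, and FGF10 is needed for the gland to bud. The endocrine FGFs need a klotho coreceptor, and the FGF11 subfamily (Fgf11 to Fgf14) is not secreted and binds sodium channels in excitable cells.

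The 6 MEF libraries came from cultured fibroblasts of C57BL/6 embryos. The 6 prostate libraries came from wild type C57BL/6 mice 6 weeks old. The 7 renal grafts were made from iEpt cells, which are fibroblasts carried toward an epithelial state with retroviral human OCT4, SOX2, KLF4 and c-MYC in an epithelial medium that itself contains FGF. All 7 were recombined with rat embryonic urogenital mesenchyme and grown for 6 weeks under the kidney capsule of male nude mice. In 5 of them (FS002, FS003, FS005, FS007 and FS008) the cells also carried a further set of lentiviral transgenes by the study's own sample list, whereas the labels call every graft only a renal graft. FS022 and FS023 stand in a second table, and they are the grafts without that set only by elimination. Because the tables were normalised separately, FS022 and FS023 entered no test, and their values are set beside the others as a description. The graft tissue thus held reprogrammed cells, rat stroma and mouse host cells, and whether rat reads were counted on mouse genes is not given in the sources used here. In such tissue, fewer cells of a type and less RNA per cell cannot be told apart.

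Values are the deposited log2 normalised read counts, on which 0 reads stand at -0.31. The depth estimated on genes was 20418167 to 26152349 reads in MEF, 16767295 to 22512397 in prostate and 17371431 to 23446534 in the 5 grafts, and 6629666 and 9662061 in FS022 and FS023. On this scale 3 reads correspond to between 1.68 and 2.34 for the 17 libraries of the first table, to 3.12 for FS022 and to 2.70 for FS023, and lower values were treated as not detectable at this depth. Such a floor covers counting error only. The deposited low values also scattered: over 5506 genes under 3.5 in all 17 libraries, the SD within a library was 1.2 to 1.37. A single value just above 3 reads is therefore not a firm detection. The 6 MEF libraries formed 3 near-identical pairs (FS015 with FS020, FS016 with FS019, FS017 with FS018), whose counts differed by a chi-square per degree of freedom of 5.47 to 31.6, against 303 to 471 between the pairs. Whether a pair is 2 cultures or repeat libraries of 1 is not given in the sources used here. A pair differed by more than counting noise, which does not tell cultures from repeat libraries. All 6 were kept, but if the pairs are repeats, MEF has 3 independent samples, and its SDs and p-values are too small. Calls that change when each pair is averaged are therefore named. MEF libraries FS015 to FS018 held transcripts of prostate secretory genes at 0.0539% to 0.180% of their prostate level, and results that change without these libraries are named too. All 9 epithelial markers were higher in prostate and in the 5 grafts than in MEF, and all 5 prostate secretory markers were lower in the grafts than in prostate. Nothing in the labels says that samples of a group came from separate animals or cultures, so the p-values measure the spread between these samples only.

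**Figure D1:**
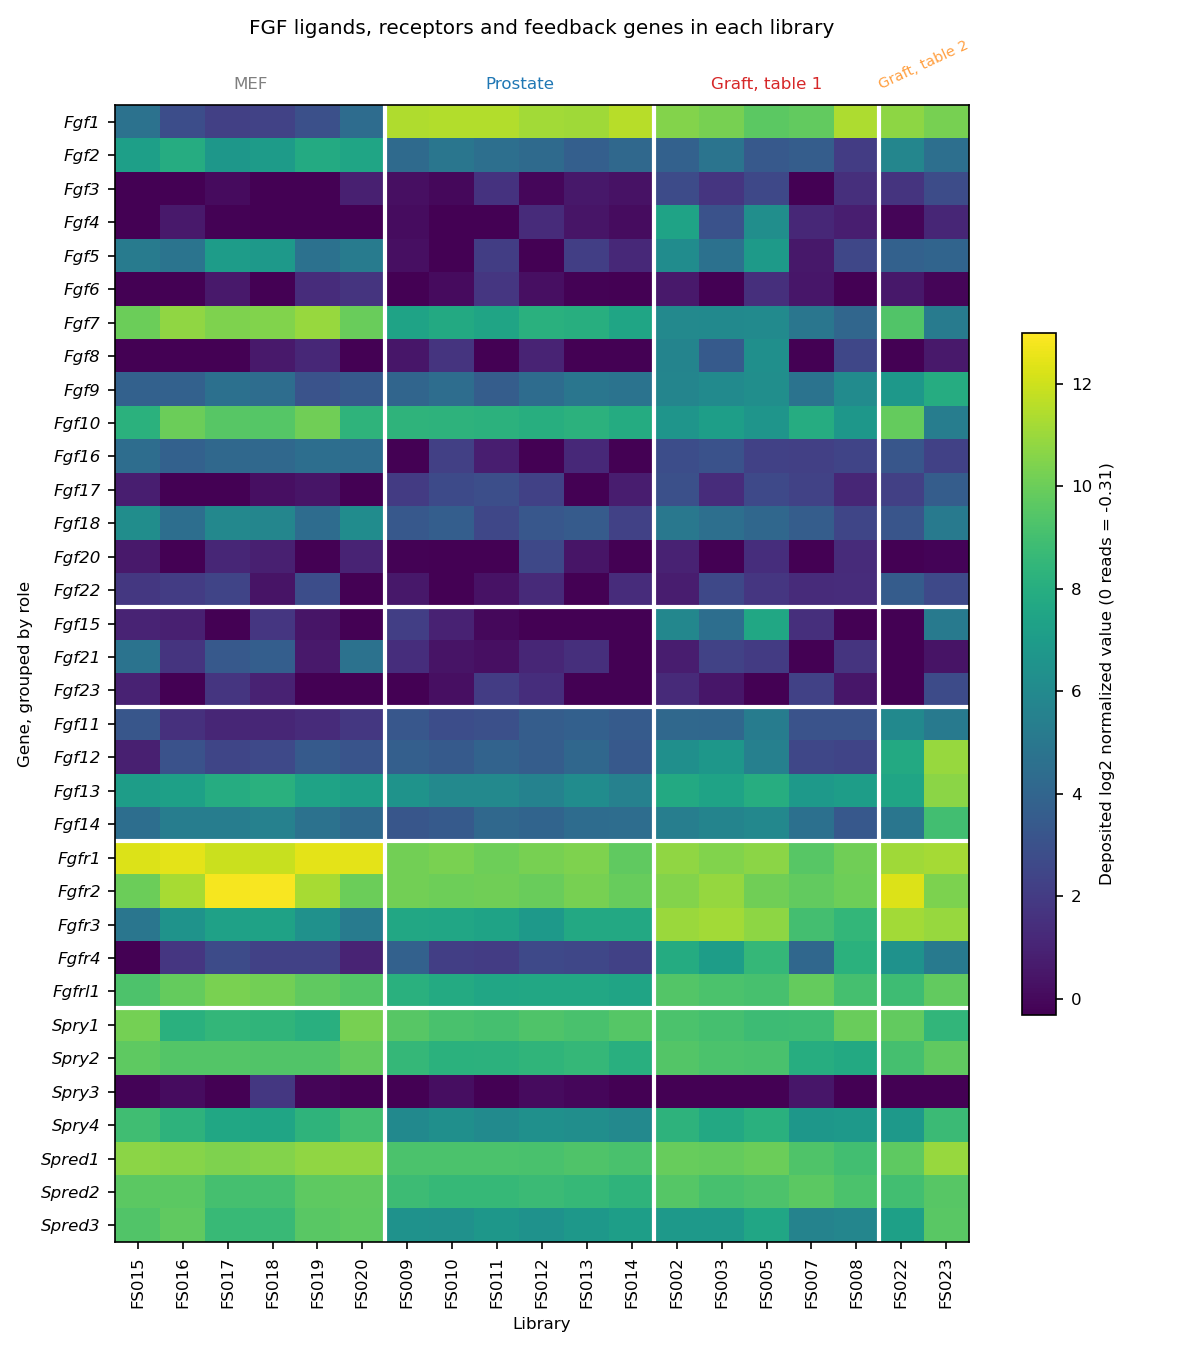
Each row is 1 of the 34 genes, grouped from top to bottom as paracrine ligands, endocrine ligands, intracellular homologues, receptors and feedback inhibitors, and each column is 1 library. The colour is the deposited log2 value; Fgf1 is bright in prostate and grafts and dark in MEF, while Fgf3, Fgf6, Fgf20, Fgf23 and Spry3 are dark across the groups.

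A gene was called when limma's moderated test gave a Benjamini-Hochberg adjusted p under 0.05 over all genes tested together with a log2 fold change of 1 or more in size. Prostate against MEF, 21 of the 34 genes had enough signal to be tested, 3 were called higher and 14 lower. That share of 81.0% stands beside a background of 48.3% of all 14560 genes tested, of which 27.8% were higher and 20.5% lower. The median log2 fold change was -1.40 over the tested FGF genes and 0.17 over all genes. Between the 5 grafts and MEF, 26 were tested, 8 were higher and 7 lower, a share of 57.7% beside a background of 41.9% (29.9% higher and 12.0% lower). Between the grafts and prostate, 25 were tested, 9 were higher and 3 lower, a share of 48.0% beside a background of 33.3% (23.0% higher and 10.3% lower). The medians of these last comparisons were -0.29 and 0.89 over the FGF genes and 0.26 and 0.11 over all genes. Each pair of comparisons shares a group of libraries, so the 3 sets of values are not independent. Genes near the floor in 1 group were tested only through the group where they were higher, and the counts include them. Among them were Fgf4, Fgf8, Fgf15 and Fgfr4 in the graft comparisons and Fgf11 in grafts against MEF. Fgf16 in prostate against MEF and Fgf5 in both prostate comparisons were others.

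**Figure D2:**
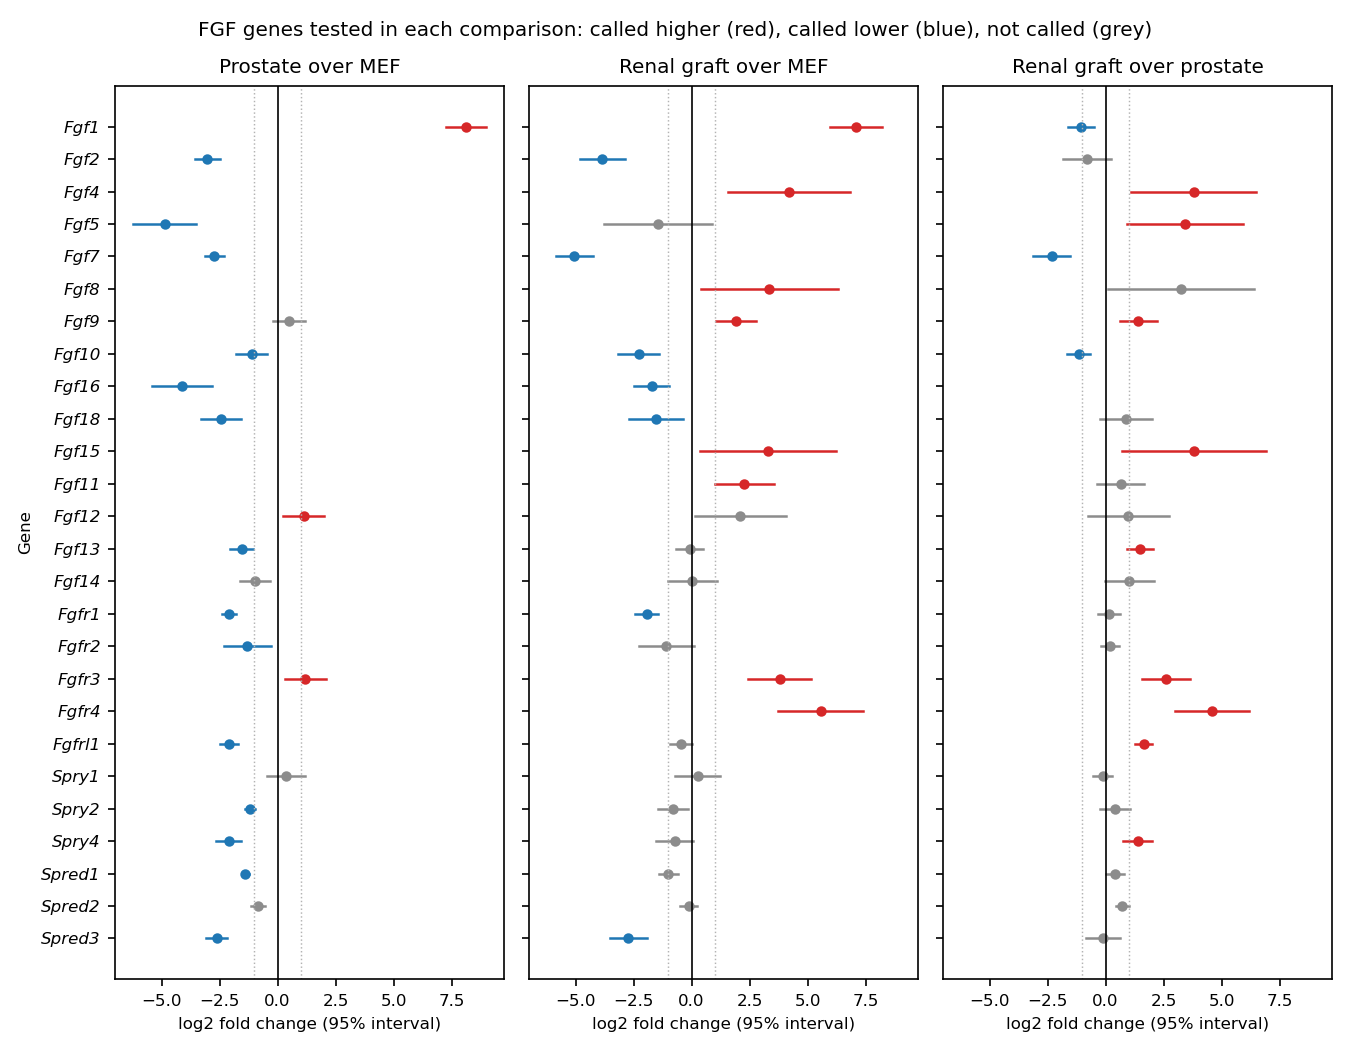
Points are log2 fold changes of the FGF genes tested in each of 3 comparisons, lines are 95% confidence intervals from limma, and dotted lines mark a log2 fold change of 1 in either direction; for Fgf4, Fgf8 and Fgf15, and for Fgf5 and Fgf16 in prostate and Fgf11 and Fgfr4 in MEF, at least 3 of the other group's libraries were at or under 3 reads, so the size of the fitted change is not a measured fold. Most genes lie to the left of 0 in prostate over MEF, where 14 of 21 were called lower, whereas Fgfr3 and Fgfr4 lie to the right in both graft comparisons.

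Among the paracrine ligands, Fgf1 was the one with high levels in prostate and low levels in fibroblasts. Fgf1 encodes acidic FGF, which binds all FGF receptors and lacks a signal peptide. Its values in prostate ran from 11.11 through a median of 11.43 to 11.56, and in MEF from 2.22 through 2.90 to 4.72. The 5 grafts read 10.53, 10.26, 9.67, 9.79 and 11.34 in FS002, FS003, FS005, FS007 and FS008, and FS022 and FS023 read 10.72 and 10.28. No prostate library or graft came near the MEF range. Fgf1 was higher in prostate than in MEF by 8.13 ± 0.40 (SE) on the log2 scale (limma, adjusted p = 8.93e-10) and higher in the grafts than in MEF by 7.08 ± 0.52 (adjusted p = 8.50e-07). Prostate RNA in the MEF libraries could account for 4.77 of the 24.8 normalised reads of Fgf1 in FS015 and 1.87 of 3.17 in FS017, whereas FS019 and FS020 had 6.20 and 19.8 with next to none. The grafts lay below prostate by -1.05 ± 0.26 (adjusted p = 0.00478), with FS008 inside the prostate range. This last call sat at the fold threshold: the difference was -0.97 with each library centred on its median, -0.89 without FS005 and -0.92 without FS007.

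Per kilobase of exon, Fgf1 was the highest ligand of both prostate and grafts. Its mean was 572 normalised reads per kb in prostate and 301 in the 5 grafts, against 2.26 in MEF. The next ligands in prostate were Fgf7 at 65.4 and Fgf10 at 62.5 normalised reads per kb. In MEF the order was Fgf7 at 439, Fgf10 at 153, Fgf2 at 95.1 and Fgf18 at 41.6.

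Against MEF, Fgf7 and Fgf10, the stromal ligands of epithelial FGFR2, went the opposite way to Fgf1, whereas all 3 were lower in the grafts than in prostate. The urogenital mesenchyme of the grafts was rat, so values on mouse genes may miss ligand transcripts of that stroma. The graft values below are thus no measure of all stromal ligand in the grafts. Fgf7, which encodes keratinocyte growth factor (chromosome 2, 125860394 to 125916921 on the mm9 assembly), had values from 9.97 through a median of 10.46 to 10.95 in MEF and from 7.39 through 7.64 to 8.13 in prostate. The 5 grafts read 5.93, 5.99, 6.04, 4.89 and 4.09. The 3 groups did not overlap. Fgf7 was lower in prostate than in MEF by -2.72 ± 0.19 (limma, adjusted p = 1.90e-08), lower in the grafts than in MEF by -5.05 ± 0.36 (adjusted p = 7.48e-07) and lower in the grafts than in prostate by -2.32 ± 0.36 (adjusted p = 0.000248). The 2 grafts of the second table were far apart, with 9.40 in FS022, above every prostate library, and 5.24 in FS023.

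Fgf10 (chromosome 13, 119458598 to 119580922) ranged from 8.19 through 9.53 to 10.11 in MEF and from 7.89 through 8.23 to 8.33 in prostate. The 5 grafts read 6.62, 7.13, 6.61, 7.94 and 6.72, so that FS007 alone reached the prostate range. Fgf10 was lower in the grafts than in MEF by -2.28 ± 0.40 (limma, adjusted p = 0.000424) and than in prostate by -1.16 ± 0.24 (adjusted p = 0.00152). The difference between prostate and MEF was -1.12 ± 0.31 (adjusted p = 0.00457) with overlapping groups, and it went to -0.98 without MEF library FS016 and -0.95 without its near-twin FS019. The MEF pairs stood apart for this gene, with means of 8.28, 10.05 and 9.53 for FS015 with FS020, FS016 with FS019 and FS017 with FS018. In the second table Fgf10 was 9.83 in FS022 and 5.31 in FS023.

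In the second table several marker lists were higher in FS022, the graft with more of both stromal ligands. The summed level of 7 smooth muscle markers was 18.27 in FS022 and 11.81 in FS023, and Myh11, the smooth muscle myosin heavy chain, was 17.06 and 6.79. Summed fibroblast markers were 16.16 and 14.53, kidney markers 15.26 and 11.70, and epithelial markers 15.48 and 13.28 in the same grafts. In the first table the same sum ran from 12.56 to 14.84 in the grafts, 16.67 to 17.36 in prostate and 16.35 to 17.05 in MEF, with all 7 markers above 3 reads in every library. FS007, with the highest Fgf10 of the 5 grafts, had the second lowest of these sums, 13.84. Summed fibroblast markers ran from 13.73 to 16.38 in the 5 grafts, 14.57 to 15.91 in prostate and 18.77 to 19.26 in MEF. The part of these cell types in the Fgf7 and Fgf10 values was not tested.

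The other fibroblast ligands were Fgf2, Fgf5, Fgf16 and Fgf18. Fgf2, basic FGF, had values from 6.74 through 7.35 to 7.95 in MEF, 3.71 through 4.30 to 4.91 in prostate, and 3.82, 4.80, 3.39, 3.6 and 2.05 in the grafts, where FS008 was at its 3-read floor. It was lower in prostate and in grafts than in MEF, by -3.04 ± 0.25 (limma, adjusted p = 1.05e-07) and -3.84 ± 0.44 (adjusted p = 2.26e-05), while prostate and grafts overlapped (difference -0.79, 95% interval -1.82 to 0.24, but -1.97 with an adjusted p of 0.00139 after quantile normalisation). Fgf16, a ligand known from heart and brown fat, was low everywhere, with 3.83 through 4.32 to 4.52 in MEF, -1.58 through 0.08 to 2.19 in prostate, and 2.83, 3.04, 2.26, 2.21 and 2.44 in the grafts. Only 1 prostate library had it above 3 reads. It was called lower in prostate than in MEF (adjusted p = 2.51e-05), with a bound on the log2 difference of -2.09 once values under 3 reads are raised to that floor. In the grafts it was lower than in MEF by -1.72 ± 0.34 (adjusted p = 0.00105), this call being lost without FS015 to FS018 (adjusted p = 0.0592) and with a pseudocount of 10 (log2 fold change -0.88).

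Fgf18, a ligand of lung and cartilage growth, ranged from 4.41 through 5.84 to 6.23 in MEF and 2.24 through 3.30 to 3.66 in prostate, groups that did not overlap (-2.42 ± 0.40, limma, adjusted p = 7.98e-05). The grafts read 5.02, 4.57, 4.16, 3.63 and 2.49 and overlapped both groups. Their difference from MEF was -1.53 ± 0.53 (adjusted p = 0.0246), and that call was lost when MEF pairs were averaged (adjusted p = 0.102), without FS008 (adjusted p = 0.0510) and without FS015 to FS018 (adjusted p = 0.268). Leaving out MEF library FS015, FS017 or FS020 ended it as well, with adjusted p from 0.0503 to 0.0536. Against prostate the grafts differed by 0.89, a call only without FS008 (1.26, adjusted p = 0.0306).

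Fgf9, which is made by epithelia and signals mainly to mesenchymal receptors, was detected in every library and called higher in grafts than in both other groups. Its values were 3.07 through 3.81 to 4.60 in MEF, 3.6 through 4.44 to 4.92 in prostate, and 5.73, 6.06, 6.29, 4.74 and 6.13 in the grafts. FS007 lay within the prostate range and the other 4 grafts above it. Fgf9 exceeded MEF by 1.93 ± 0.39 (limma, adjusted p = 0.00125) and prostate by 1.42 ± 0.36 (adjusted p = 0.00578). Quantile normalisation turned the first difference to -0.60 (adjusted p = 0.251) and the second to 0.00, so the direction depends on the scaling. FS022 and FS023 had the highest Fgf9 values of all libraries, 6.80 and 7.94. Prostate and MEF differed by 0.51 (95% interval -0.18 to 1.2), a difference that was also -0.60 after quantile normalisation and became a call of 1.10 without FS015 to FS018 (adjusted p = 0.0352).

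**Figure D3:**
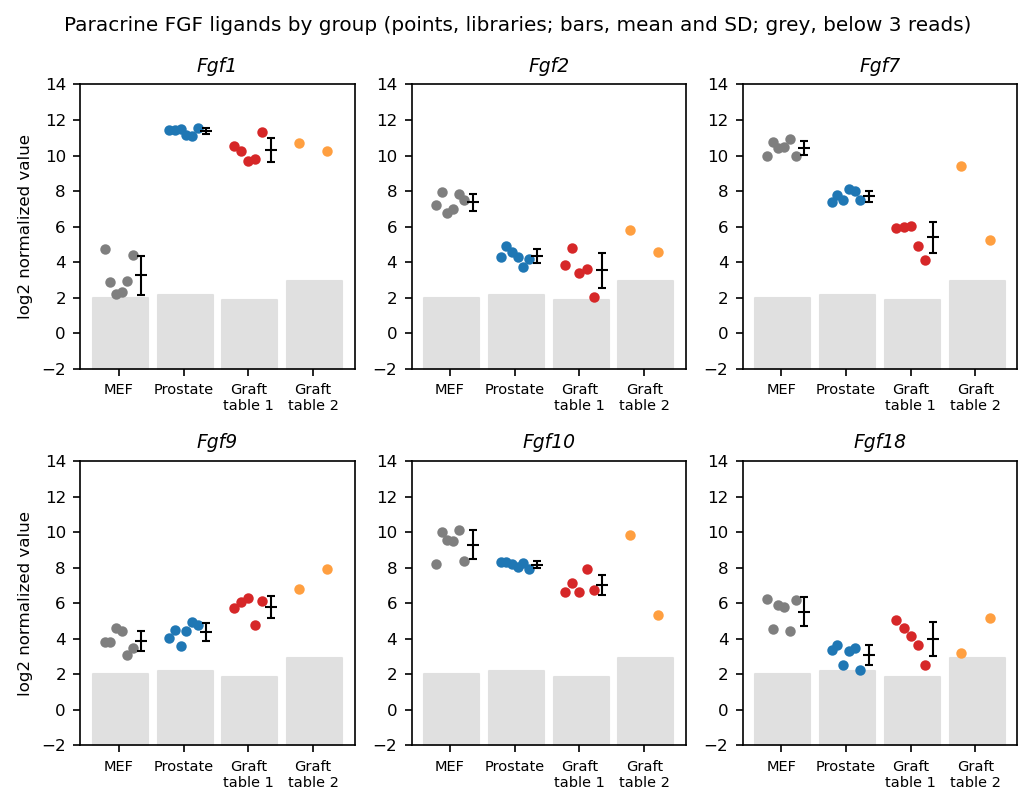
Points are the log2 normalised values of 6 ligands in each library, black bars show the mean and SD of the 3 groups in the first table, and grey marks values below the group's mean value of 3 reads. Fgf1 is lowest in MEF, Fgf7 is highest in MEF, graft FS022 is the high graft for Fgf7 and Fgf10, and the 2 grafts of the second table lie at the top for Fgf9.

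A separate set of ligands was detected in some grafts and not in others. Fgf4 sustains the inner cell mass, Fgf5 marks the primitive ectoderm, Fgf8 patterns the gastrula and the limb, and Fgf15 acts in the embryonic brain and later as an intestinal hormone. Fgf4 was 7.40, 3.04 and 6.27 in FS002, FS003 and FS005, and 1.16 and 0.83, under 3 reads, in FS007 and FS008. Fgf15 was 5.83, 4.52 and 7.61 in the first 3 and 1.46 and -0.69 in the other two. Fgf8 was 5.68, 3.48 and 6.33, then -2.18 in FS007 and 2.51 in FS008. The first 3 grafts were thus above 3 reads for each of these ligands, and FS007 for none. FS008 was above for Fgf8 alone, close to its 3-read value of 2.05.

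In MEF and prostate these 3 genes were at or under 3 reads in every library, with ranges of -1.34 to 0.62 and -1.72 to 1.33 for Fgf4, -1.39 to 1.19 and -2.62 to 1.70 for Fgf8, and -0.86 to 1.77 and -2.26 to 2.16 for Fgf15. Against a floor of 3 reads per library, the mean of the 5 grafts was at least 20-fold higher than MEF and at least 16.7-fold higher than prostate for Fgf4. The bounds were 21.6-fold and 18.1-fold for Fgf15, and 11.3-fold and 9.48-fold for Fgf8. Each mean leaned on 1 library: without FS002 the Fgf4 bounds were 8.34-fold and 6.98-fold, and without FS005 they were 7.76-fold and 6.49-fold for Fgf15 and 6.32-fold and 5.28-fold for Fgf8. All 3 genes reached the linear mean of 10 needed for testing only through the grafts, so their calls are not independent of that filter. Fgf4 passed the test against MEF (limma, adjusted p = 0.00914) and prostate (adjusted p = 0.0210), and so did Fgf15 (adjusted p = 0.0468 and 0.0388), while Fgf8 passed against MEF (adjusted p = 0.0459) and not against prostate (adjusted p = 0.0743). With no filter on low values the Fgf15 call against MEF was lost (adjusted p = 0.0527). With a pseudocount of 10, Fgf4 lost its calls against MEF (0.0510) and prostate (0.0630), and Fgf15 its call against prostate (0.0501). All 3 calls against MEF were lost when MEF pairs were averaged (adjusted p = 0.0623 for Fgf4, 0.156 for Fgf15 and 0.159 for Fgf8) and without FS015 to FS018 (0.136, 0.2 and 0.341). Leaving out 1 graft was enough to end the Fgf15 call against prostate (0.0949 without FS002 and 0.0757 without FS003) and the Fgf4 call against prostate (0.0588 without FS005). Against MEF, Fgf15 lost its call without FS002 (0.112) or FS003 (0.0899), and Fgf8 lost its call without FS002 (0.115), FS003 (0.0800) or FS008 (0.0576). Leaving out single MEF libraries ended the Fgf15 call with any of the 6 (0.0513 to 0.0859) and the Fgf8 call with FS015, FS016, FS017, FS018 or FS020 (0.0585 to 0.0833). Fgf8 against prostate became a call without FS007 (0.0033) and with a pseudocount of 10 (0.0436), and quantile normalisation ended both Fgf15 calls (0.230 against MEF and 0.0859 against prostate). Leaving out any of 5 prostate libraries, FS010 to FS014, ended the Fgf15 call against prostate (0.05 to 0.0777).

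Fgf5 was detected in the fibroblasts as well. It was 6.17, 4.66 and 6.96 in FS002, FS003 and FS005, 0.56 in FS007 and 2.54 in FS008, against 4.65 through 5.23 to 7.07 in MEF and -0.64 through 0.72 to 2.16 in prostate. In prostate 5 of 6 libraries were at or under 3 reads, and with values raised to that floor the log2 difference from MEF was bounded at -3.47 (limma on the deposited values, adjusted p = 8.93e-06). The grafts exceeded prostate by 2.3 with values raised in the same way (adjusted p = 0.0238), a call that ended without FS002 (adjusted p = 0.0634) or FS005 (adjusted p = 0.0643). Against MEF the difference was -1.45, with a wide 95% interval of -3.78 to 0.87, and quantile normalisation made it a call of -3.30 (adjusted p = 0.00402).

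Fgf4 and Fgf15 are neighbours on chromosome 7 (152047291 to 152051148 and 152082437 to 152086858 on mm9, plus strand). Fgf3, just upstream of both at 152023988 to 152030341, was above 3 reads in FS002 (2.71) and FS005 (2.58) and in no other library of the first table. These values lay close to the 3-read values of 1.68 and 1.83, and the scatter of low values leaves detection unsure. Too few reads were present for Fgf3 to be tested. In the second table it was 2.78 in FS023 and 1.68 in FS022, where 3 reads stand at 2.70 and 3.12.

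Some transcripts of pluripotent cells followed the same grafts as these ligands, and Utf1 did not. Pou5f1 (Oct4) was 9.79, 4.52 and 8.96 in FS002, FS003 and FS005, and 1.55 and 0.81, under 3 reads, in FS007 and FS008. Lin28a read 9.75, 6.50, 9.75, 2.3 and -0.59 in the same order, and Tdgf1 read 9.52, 6.07, 8.95, -1.19 and 1.52. Utf1 read 8.48, 3.63, 7.51, 2.35 and 7.48, so that FS008, with Fgf4 and Fgf15 under 3 reads, was as high as FS005. Of the 8 pluripotency genes listed, 8, 7, 8, 3 and 2 were above 3 reads, and their summed level was 12.39, 10.46, 11.94, 10.73 and 10.24, of which Sox2, at 10.01 to 10.75 in each of the 5 grafts, made up most in FS003, FS007 and FS008. Human SOX2 and OCT4 had been introduced into the cells, and whether human transcripts were counted on the mouse genes is not given in the sources used here. In the second table Pou5f1 was 0.02 in FS022 and 2.87 in FS023, where Fgf4 was under 3 reads in both and Fgf15 was -0.66 and 5.14. Summed neural markers separated the first-table grafts in the same way, with 14.29, 14.82 and 13.25 in FS002, FS003 and FS005 and 8.41 and 9.38 in FS007 and FS008, as did skeletal muscle markers with 15.91, 15.01 and 15.25 against 12.10 and 10.19. The part of pluripotent, neural or muscle cells in the ligand values was not tested.

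The intracellular homologues differed widely between grafts. Fgf12 was 6.33, 6.75 and 5.51 in FS002, FS003 and FS005, 2.53 and 2.41 in FS007 and FS008, and then 7.78 in FS022 and 10.94 in FS023. Fgf14 read 5.38, 5.71, 5.92, 4.58 and 3.33 among the first 5 grafts, and FS022 and FS023 had 4.90 and 8.99. Fgf13 read 7.78, 7.40, 7.98, 6.88 and 7.09, then 7.53 and 10.70. FS023 was the highest of all 19 libraries for these 3 genes and had the highest neural sum, 17.14, with 13.35 in FS022. Fgf11 instead peaked in FS022 (5.99, with 5.15 in FS023), and among FS002, FS003 and FS005 the highest Fgf11, Fgf13 and Fgf14 were in FS005, whose neural sum was the lowest of these grafts. All 8 neural markers were above 3 reads in FS023. The part of neural cells in these values was not tested.

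Between groups, Fgf13 was 7.11 through 7.36 to 8.15 in MEF and 5.54 through 5.95 to 6.51 in prostate, and prostate lay below both MEF (-1.55 ± 0.22, limma, adjusted p = 2.32e-05) and the grafts, which exceeded it by 1.47 ± 0.26 (adjusted p = 0.000556, or 0.83 after quantile normalisation). Fgf12 was 0.85 through 2.82 to 3.48 in MEF and 3.40 through 3.67 to 4.13 in prostate, a called difference of 1.12 ± 0.41 (adjusted p = 0.0222). That call ended without FS015 (log2 fold change 0.77), which holds the low MEF value, without FS015 to FS018 (0.39), after quantile normalisation (0.01), with a pseudocount of 10 (0.48) and with all groups in 1 fit (adjusted p = 0.165). Fgf11 was at 1.11 through 1.42 to 3.26 in MEF, above 3 reads in 1 library, 2.83 through 3.40 to 3.75 in prostate, and 4.20, 4.16, 5.30, 3.12 and 3.09 in the grafts. Grafts exceeded MEF by 1.76 with the 5 low MEF libraries raised to the value of 3 reads (adjusted p = 0.00504 on the deposited values, but 0.0635 without FS015 to FS018, and a log2 fold change of 0.97 with a pseudocount of 10). Fgf14 was 4.25 through 5.01 to 5.54 in MEF and 3.25 through 4.08 to 4.44 in prostate, a difference of -0.99 (adjusted p = 0.00828) just short of the fold threshold. It passed with median centring (adjusted p = 0.00763), with quantile normalisation (-1.82) and without FS011, FS012, FS013, FS014, FS015, FS019 or FS020 in turn (adjusted p = 0.00397 to 0.0141). Grafts exceeded prostate in a call without FS008 (1.44, adjusted p = 0.00766) and were below MEF by -2.23 (adjusted p = 0.000365) once quantile normalised. Fgf12 in grafts against MEF (adjusted p = 0.0556) became a call without FS007 (0.0188) or FS008 (0.0165), with a pseudocount of 10 (0.0442) and with all groups in 1 fit (0.0173).

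**Figure D4:**
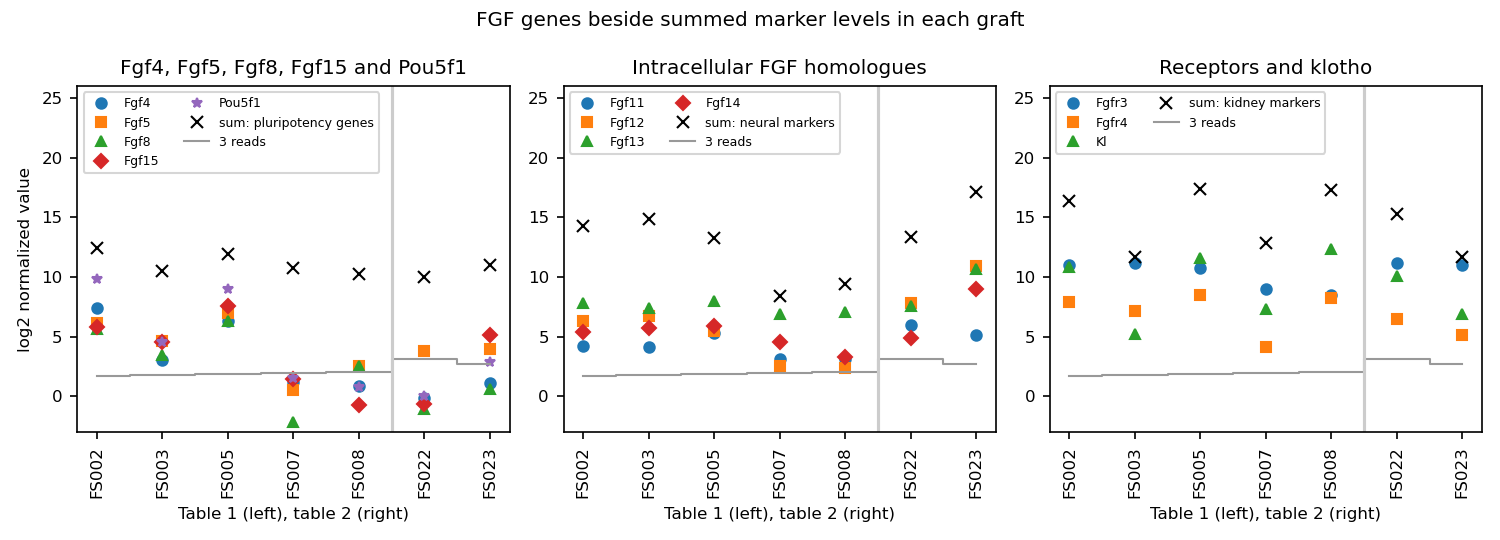
Each column on the horizontal axis is 1 graft, with first-table grafts left of the vertical line, coloured symbols are log2 normalised values of single genes, crosses are the log2 summed level of a marker list and the grey step is the value of 3 reads. Fgf4, Fgf5, Fgf8 and Fgf15 are higher in FS002, FS003 and FS005 than in FS007 and FS008, Fgf12, Fgf13 and Fgf14 peak in FS023 with the neural sum, and Kl is highest in the 3 grafts with the highest kidney sum (FS002, FS005 and FS008).

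The remaining ligands were near or under the floor. Fgf6 was not above 3 reads in any library. In the first table, Fgf17 was above 3 reads in 3 grafts and 3 prostate libraries, Fgf20 in 1 prostate library, Fgf22 in 3 MEF libraries and 1 graft, and Fgf23, the phosphate hormone made by bone, in 1 graft. Fgf21, a hormone of liver and fat, was above 3 reads in 4 MEF libraries (highest 4.75), in no prostate library and in 2 grafts (highest 2.33). The MEF pairs had Fgf21 means of 4.72, 1.16 and 3.53. None of these genes had enough reads to be tested.

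Fgfr1 was higher in MEF than in any prostate library or graft, and Fgfr3 and Fgfr4 were higher in the 5 grafts than in MEF and prostate. Fgfr1, the main mesenchymal receptor (chromosome 8, 26624126 to 26686186), ranged from 11.86 through 12.37 to 12.46 in MEF and from 9.73 through 10.20 to 10.41 in prostate. The grafts read 10.80, 10.46, 10.68, 9.52 and 10.11. MEF lay above every prostate library and graft. The log2 fold change against MEF was -2.09 ± 0.14 in prostate (limma, adjusted p = 1.19e-08) and -1.93 ± 0.22 in the grafts (adjusted p = 2.23e-05). Grafts and prostate overlapped, with a difference of 0.16 (95% interval -0.32 to 0.63). FS022 and FS023 read 11.11 and 11.23.

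Fgfr2 was similar in prostate and the first-table grafts, and differed between MEF pairs. It ranged from 9.90 through 10.08 to 10.25 in prostate and read 10.55, 10.90, 10.11, 9.79 and 10.06 in the grafts, a difference of 0.21 (95% interval -0.18 to 0.60). In MEF it ran from 10.00 to 12.88 with a median of 11.25. The MEF spread lay between the pairs, whose means were 10.00 (FS015 with FS020), 11.25 (FS016 with FS019) and 12.85 (FS017 with FS018), with at most 0.06 within a pair. The call of prostate below MEF, -1.30 ± 0.47 (limma, adjusted p = 0.0215), ended without FS018 (log2 fold change -0.99) and without FS015 to FS018 (-0.56, adjusted p = 0.0818). Grafts and MEF differed by -1.09 (adjusted p = 0.0974), which became a call without FS015 or FS020 (-1.36 in both, adjusted p = 0.0398 and 0.0396) and with all groups in 1 fit (adjusted p = 0.0398). In the second table FS022 stood far above FS023, at 12.31 against 10.35. These are counts per gene, so the epithelial IIIb and mesenchymal IIIc forms of Fgfr2 are not told apart.

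Fgfr3 (chromosome 5, 34064373 to 34079716), whose forms bind FGF1 and FGF9, was 4.91 through 6.47 to 7.37 in MEF and 6.84 through 7.63 to 7.74 in prostate. The grafts read 11.02, 11.18, 10.72, 9.02 and 8.50, all above every MEF and prostate library. FS022 and FS023 read 11.14 and 10.97, within the range of the other grafts. Summed neural markers were 14.29, 14.82, 13.25, 8.41 and 9.38 in the 5 grafts, and 13.35 and 17.14 in FS022 and FS023. In prostate they ran from 8.50 to 9.21 and in MEF from 7.97 to 11.72. The part of neural cells in the Fgfr3 values was not tested. Fgfr3 was higher in grafts than in MEF by 3.80 ± 0.62 (limma, adjusted p = 0.000264) and than in prostate by 2.60 ± 0.47 (adjusted p = 0.000734). Per kilobase of exon its mean was 202 normalised reads in the grafts, 26.5 in prostate and 13.5 in MEF. The smaller difference of prostate over MEF, 1.2 ± 0.40 (adjusted p = 0.0146), fell below the fold threshold without MEF library FS015 (0.93) or FS020 (0.99) and after quantile normalisation (0.72).

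Fgfr4 (chromosome 13, 55254001 to 55270120), a receptor known from liver, kidney and muscle progenitors, was close to the floor in MEF, with -0.46 through 2.03 to 2.75 and 3 of 6 libraries above 3 reads, and in prostate, with 2.06 through 2.41 to 3.83. The grafts read 7.89, 7.11, 8.53, 4.15 and 8.21. All 5 lay above both other groups, FS007 by the least. With the 3 low MEF libraries raised to the value of 3 reads, the grafts exceeded MEF by 4.98 (limma on the deposited values, adjusted p = 0.000152). They exceeded prostate by 4.59 ± 0.72 (adjusted p = 0.000281). Fgfr4 reached the linear mean of 10 needed for testing only through the grafts, so these calls are not independent of that filter. Summed kidney markers in the same order were 16.40, 11.65, 17.39, 12.87 and 17.29, against 10.02 to 10.73 in prostate and 9.48 to 13.07 in MEF. The low sums lean on Aqp1, which was called in no comparison and alone read 10.91 in FS003, 10.01 to 10.64 in prostate and 8.50 to 13.03 in MEF. Summed skeletal muscle markers in the same order were 15.91, 15.01, 15.25, 12.10 and 10.19, against 12.40 to 13.25 in prostate and 8.32 to 10.41 in MEF. The part of kidney or muscle cells in Fgfr4 was not tested. FS022 and FS023 read 6.48 and 5.12, with kidney sums of 15.26 and 11.70 and skeletal muscle sums of 16.20 and 12.60.

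Fgfrl1, a receptor without a kinase domain, was 9.27 through 9.82 to 10.33 in MEF and 7.44 through 7.67 to 8.16 in prostate, and 9.44, 9.25, 9.15, 9.87 and 9.07 in the grafts. Prostate lay below both, by -2.09 ± 0.18 from MEF (limma, adjusted p = 1.62e-07), and grafts exceeded prostate by 1.64 ± 0.17 (adjusted p = 1.67e-05). Grafts and MEF overlapped, at -0.45 (95% interval -0.91 to 0.00).

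**Figure D5:**
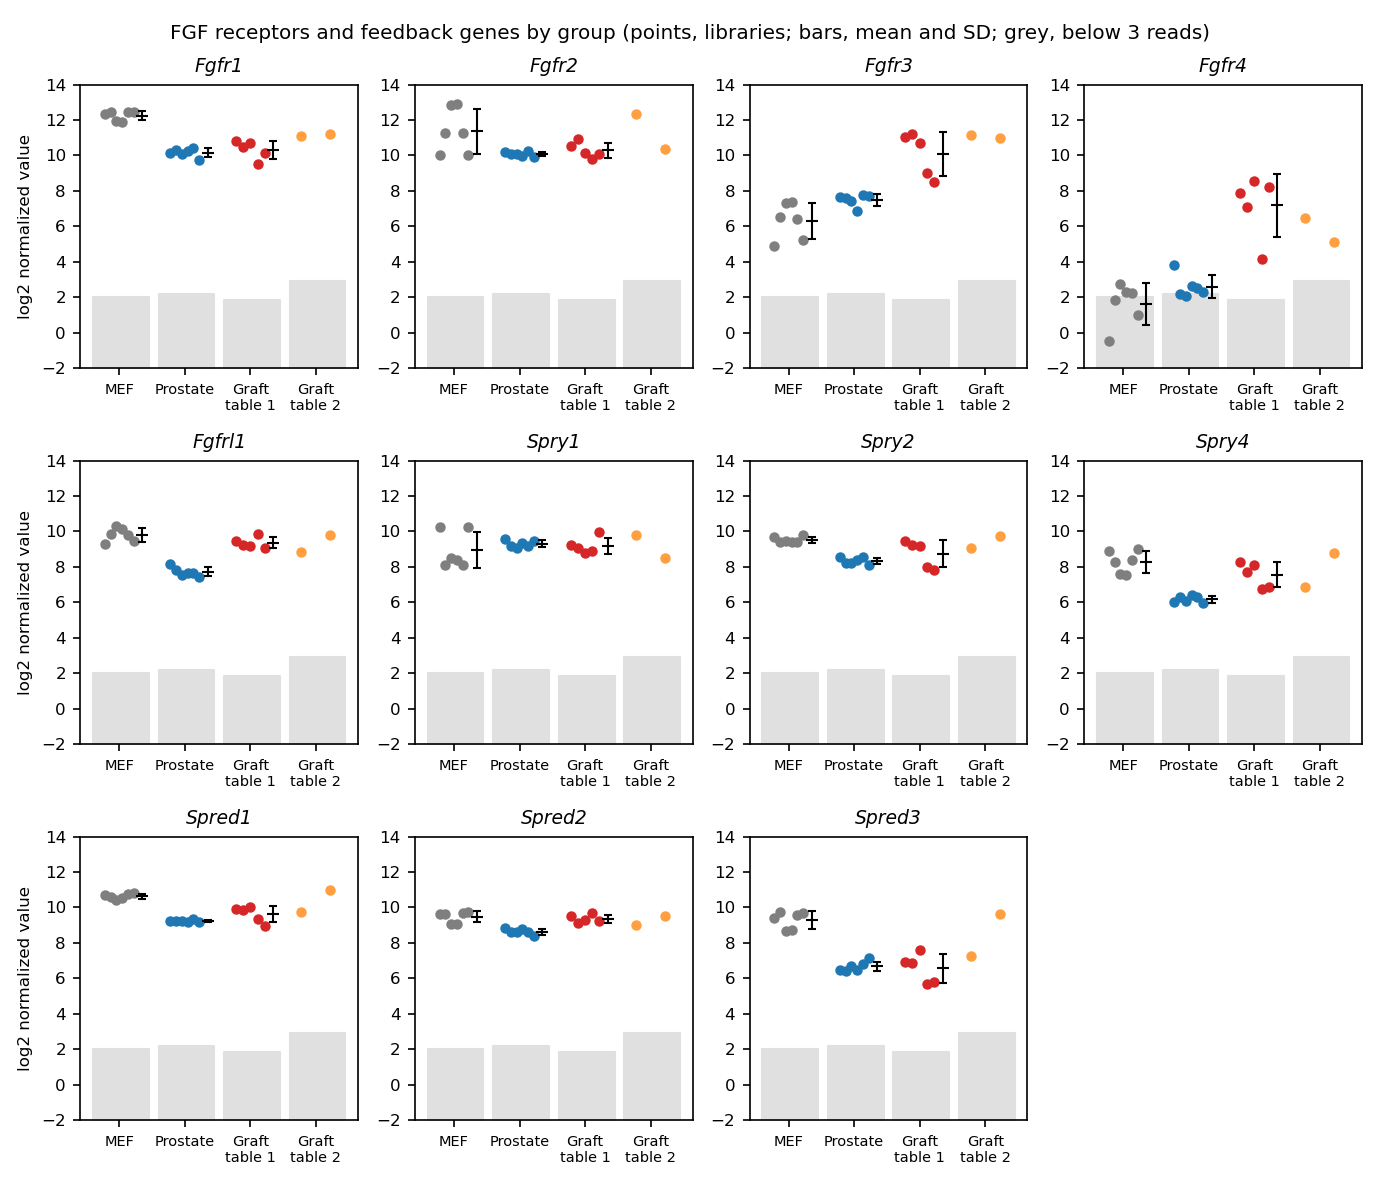
Points are the log2 normalised values of 5 receptors and 6 feedback genes in each library, black bars show the mean and SD of the 3 groups in the first table, and grey marks values below the group's mean value of 3 reads. Fgfr3 and Fgfr4 are highest in the grafts, the groups overlap for Spry1, and Spry4, Spred2 and Fgfrl1 are lowest in prostate, while the lowest Spred1 point is graft FS008.

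Of the 7 feedback inhibitors, 6 had enough reads to be tested. In prostate against MEF 4 were called lower and 0 higher, in grafts against MEF 1 lower, and in grafts against prostate 1 higher. These are shares of 66.7%, 16.7% and 16.7%, beside 48.3%, 41.9% and 33.3% of all genes called in both directions together. By direction, 20.5% of all genes were lower in prostate than in MEF, 12.0% lower in grafts than in MEF and 23.0% higher in grafts than in prostate. Spry4 was 7.52 through 8.32 to 8.98 in MEF, 5.96 through 6.17 to 6.39 in prostate, and 8.29, 7.72, 8.13, 6.75 and 6.86 in the grafts. Prostate lay below every library of both groups, by -2.11 ± 0.24 from MEF (limma, adjusted p = 3.23e-06), and grafts exceeded prostate by 1.38 ± 0.29 (adjusted p = 0.00211, or 0.85 after quantile normalisation). Spry2 was 9.38 through 9.43 to 9.79 in MEF, 8.10 through 8.30 to 8.53 in prostate, and 9.46, 9.23, 9.17, 8.0 and 7.80 in the grafts. The grafts spanned the levels of both groups, and the call was prostate below MEF by -1.19 ± 0.10 (adjusted p = 1.82e-07). In Spry2 and Spry4 alike, FS002, FS003 and FS005 read higher than FS007 and FS008.

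The Spred genes encode related inhibitors that hold neurofibromin at the membrane. Spred1 had its smallest spread in MEF and prostate, with 10.44 through 10.63 to 10.80 in MEF, 9.16 through 9.23 to 9.32 in prostate and 9.92, 9.88, 10.03, 9.36 and 8.97 in the grafts. It was lower in prostate than in MEF by -1.40 ± 0.07 (limma, adjusted p = 7.89e-10), and the difference of grafts from MEF, -1.0 ± 0.18, missed the fold threshold with an adjusted p of 0.000589 and passed it without FS015 to FS018 (-1.16) and without FS002 (-1.07), FS003 (-1.06), FS005 (-1.10), FS016 (-1.01), FS017 (-1.04) or FS018 (-1.02). Spred3 was 8.65 through 9.48 to 9.74 in MEF, 6.40 through 6.60 to 7.14 in prostate and 6.91, 6.87, 7.58, 5.66 and 5.80 in the grafts, lower than MEF by -2.62 ± 0.21 in prostate (adjusted p = 9.38e-08) and by -2.73 ± 0.36 in grafts (adjusted p = 6.43e-05). FS023 stood apart for Spred3 at 9.61, within the MEF range, and also had the highest Spred1, 10.96. Spred2 was lower in prostate than in MEF by -0.86 (adjusted p = 6.08e-05) and higher in grafts than in prostate by 0.73 (adjusted p = 0.000452), both short of the fold threshold although the groups did not overlap. The first became a call of -1.09 without FS015 to FS018. The means were of 9.48 in MEF (SD 0.31, n = 6), 8.62 in prostate (SD 0.16, n = 6) and 9.36 in grafts (SD 0.22, n = 5).

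No difference in Spry1 passed the test, and its groups overlapped, with means of 8.93 in MEF (SD 1.02, n = 6), 9.30 in prostate (SD 0.19, n = 6) and 9.19 in grafts (SD 0.46, n = 5). Its difference was 0.38 (95% interval -0.45 to 1.2) for prostate over MEF, 0.26 (-0.73 to 1.24) for grafts over MEF and -0.12 (-0.54 to 0.30) for grafts over prostate. These intervals leave room for differences of up to 1.24 on the log2 scale. The wide MEF spread again lay between pairs, with means of 10.23, 8.10 and 8.45. Spry3 was not above 3 reads in any library.

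Other genes of the pathway were counted from fixed lists. Of 13 coreceptors and extracellular binding proteins, 11 were tested in prostate against MEF, with 1 higher and 8 lower, all 13 in grafts against MEF, with 3 higher and 6 lower, and all 13 in grafts against prostate, with 4 higher and 1 lower. The shares called were 81.8%, 69.2% and 38.5%, beside backgrounds of 48.3%, 41.9% and 33.3%. By direction, 20.5% of all genes were lower in prostate than in MEF, 12.0% lower in grafts than in MEF and 23.0% higher in grafts than in prostate. Fgfbp1, which releases FGFs from heparan sulfate, was higher than in MEF by 6.20 ± 1.05 in prostate (limma, adjusted p = 0.000112) and by 7.06 ± 1.23 in grafts (adjusted p = 0.000424), and Hspg2, which encodes perlecan, was lower by -4.38 ± 0.17 and -5.28 ± 0.37. Kl, the klotho coreceptor of FGF23 in kidney tubules, was called higher in grafts than in prostate (adjusted p = 0.000233), where 5 of 6 libraries were at or under 3 reads. With those values raised to the value of 3 reads, the log2 difference was at least 7.27. Its values of 10.83, 5.21, 11.59, 7.30 and 12.31 had the same 3 high grafts (FS002, FS005 and FS008) as the kidney marker sum, and the part of host kidney in it was not tested.

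Heparan sulfate enzymes were mostly lower in both tissues than in MEF. All 11 were tested, and 0 were higher and 7 lower in prostate, 1 higher and 7 lower in grafts against MEF, and 4 higher and 0 lower in grafts against prostate. These are shares of 63.6%, 72.7% and 36.4%, beside 48.3%, 41.9% and 33.3% of all genes. By direction, 20.5% of all genes were lower in prostate than in MEF, 12.0% lower in grafts than in MEF and 23.0% higher in grafts than in prostate. Hs6st2, a 6-O-sulfotransferase, was lower than in MEF by -8.25 ± 0.26 in prostate (limma, adjusted p = 2.62e-11) and by -5.21 ± 0.46 in grafts (adjusted p = 3.41e-06). Sulf2, an extracellular sulfatase that removes the same sulfates, was lower in prostate than in MEF by -3.49 ± 0.29 and higher in grafts than in prostate by 3.26 ± 0.32 (adjusted p = 1.17e-05).

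Adaptors and ERK kinases had the smallest share of called genes among the 4 pathway lists. Of 18 tested, 2 were higher and 3 lower in prostate against MEF, 0 higher and 3 lower in grafts against MEF, and 0 higher and 2 lower in grafts against prostate. These shares of 27.8%, 16.7% and 11.1% lay below the backgrounds of both directions together. In the last 2 comparisons all calls were lower, beside 12.0% and 10.3% of all genes called lower. Frs2, the docking adaptor of FGF receptors, was lower than in MEF by -1.70 ± 0.08 in prostate (limma, adjusted p = 4.72e-10) and by -1.77 ± 0.10 in grafts (adjusted p = 1.98e-07). Of 12 ERK responsive target genes, 0 were higher and 7 lower in prostate against MEF, and 1 higher and 5 lower in grafts against MEF. With 11 tested, 3 were higher and 0 lower in grafts against prostate. The shares called were 58.3%, 50% and 27.3%, beside 48.3%, 41.9% and 33.3% of all genes in both directions together. By direction, 20.5% of all genes were lower in prostate than in MEF and 12.0% lower in grafts than in MEF. In grafts against prostate 23.0% of all genes were higher. Dusp4, an ERK phosphatase, was lower in prostate than in MEF by -5.51 ± 0.30 (adjusted p = 2.05e-09) and higher in grafts than in prostate by 5.62 ± 0.32 (adjusted p = 3.31e-07). Etv5, an ETS factor downstream of FGF receptors, was lower in prostate than in MEF by -2.68 ± 0.12 and higher in grafts than in prostate by 2.39 ± 0.43 (adjusted p = 0.000769). Dusp4 read 8.96, 8.08, 9.05, 9.20 and 8.64 in the grafts, with FS007 the highest, whereas Etv5 read 10.05, 8.95, 10.25, 7.98 and 7.70 and, like Spry2 and Spry4, was highest in FS002, FS003 and FS005.

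The genes most like 3 of the FGF genes were ranked by Pearson's correlation over the 17 first-table libraries among 16101 genes, as a description, since libraries of a group share their level. Those most like Fgf7 were Dnajb4 (0.989), Cask (0.979), Tgfb1i1 (0.979), Cdc42ep3 (0.977) and Fermt2 (0.973). Among those most like Fgf10 were Mettl21a (0.976), Dync1li2 (0.946), Tmem111 (0.943) and Cav1 (0.936). Those most like Fgfr2, which follows the MEF pairs, were Cdkn2c (0.960), Dio3 (0.957), Pdp1 (0.951), Rasl11a (0.930) and Sned1 (0.929).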

How the data were processed

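RNA was sequenced from TruSeq libraries without strand information. The submitters' processing notes name bcl2fastq 1.8.4, TopHat, Cufflinks, DESeq and the mm9 assembly, with no roles given. The authors deposited log2 values per gene, in 1 table of 17 libraries and another of 2, which have the form of a DESeq variance stabilising transformation. Values of 11.5 to 15 gave whole reads (100% within 0.05 of a read), lower values carried added scatter (about 10% whole), so counts were not recovered and the values were tested as deposited. The depth was estimated from the size of 1 read in each library.

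Genes whose linear mean over the libraries compared reached 10 were tested with limma 3.58.1 in R 4.3.3 (lmFit, eBayes with trend), 2 groups at a time. On simulated data it was tested that known changes were recovered. Alternatives changed the filter, pseudocount, scaling, prior, fit and libraries, and the averaging of MEF pairs was added after the data were seen. A fold against a group at or under 3 reads is a bound from that floor. Where 3 or more libraries of a group were at or under it, values were raised to it before the difference was taken. Linear levels per kb used GENCODE M1 exons on mm9, matched for 33 of 34 genes. The members, lists and tests were chosen with earlier results of these data known. By rule, every member is named, with values for those called in any comparison and for Fgf7, Fgf10, Fgfr1 and Fgfr2, and up to 3 genes per pathway list. FS022 and FS023 entered no test. An allele that the MEF labels name, the further transgenes of the grafts and 1 gene ranked by its likeness to Fgf10 are not reported here.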

Additional observations from a re-analysis of the deposited data

Results flagged for a closer look

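A value far from the rest of its group was found in 4 of 81 sets of 1 gene in 1 group by Dixon's test at 95%, where chance alone gives about 4.05. Fgf11 was 3.26 in MEF library FS015, against 1.11 to 1.84 in the other 5. Fgfr3 was 6.84 in prostate library FS012, against 7.41 to 7.74. Fgfr4 was 3.83 in prostate library FS009, against 2.06 to 2.63, at a level of a few reads. Fgf17 was -2.82 in prostate library FS013, against 0.78 to 2.89. That value lies below the value of 0 reads (-0.31), within the scatter that low deposited values carry.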

How the results depend on the processing

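Over 72 tested differences of single FGF genes, 7 of 20 called higher and 19 of 24 called lower kept their call under every alternative in which the gene was tested. Alternatives whose filter left a gene untested, such as the linear mean of 50 for low genes, did not count against it. Quantile normalisation left 1 FGF gene called higher in prostate than in MEF, 4 higher and 12 lower in grafts against MEF, and 4 higher and 5 lower in grafts against prostate. It moved the median log2 fold change of all genes from 0.17 to -0.02, from 0.26 to -0.20 and from 0.11 to -0.14, and the split of all called genes from 4044 higher and 2982 lower to 3313 and 3570, from 4815 and 1942 to 2828 and 3830, and from 3757 and 1683 to 2455 and 3176. It reversed Fgf9 to -0.60 both in prostate and in grafts against MEF, Fgf12 to -0.28 and Fgf14 to -2.23 in grafts against MEF, and Fgf12 to -0.29 and Fgf14 to -0.41 in grafts against prostate. Calls that it added include Fgf13 (-1.04) and Spry4 (-1.47) in grafts against MEF and Spred3 (-1.16) in grafts against prostate. The cause was not tested. Median centring moved the all-gene medians by less than 0.1, to 0.16, 0.33 and 0.18. A filter at a linear mean of 50, which tests fewer genes, left 3 FGF genes called higher in grafts than in MEF and 5 higher than in prostate. Without a minimum fold change, 11772, 10573 and 9093 genes were called in the 3 comparisons. In grafts against MEF, 4 FGF genes were called higher without FS015 to FS018, where Fgf13 turned to 0.14, and 5 with MEF pairs averaged, both with fewer samples. Leaving out 1 library at a time gave 1 to 3 FGF genes higher in prostate than in MEF (1 without FS015) and 4 to 9 higher in grafts than in MEF (4 without FS002, 5 without FS003 or FS005). It turned the sign only of uncalled differences, which ranged from -0.22 to 0.05 for Fgf13 and -0.19 to 0.45 for Fgf14 in grafts against MEF and from -0.36 to 0.12 for Spred3 in grafts against prostate. At a few reads the depth and the scatter of the deposited low values both limit what a value can show. Fgf17 had SDs of 1.04, 2.15 and 0.79 within MEF, prostate and the 5 grafts. The prostate SD includes -2.82 in FS013, which lies below the value of 0 reads (-0.31). No paired analysis was possible because the labels tie no sample of 1 group to a sample of another.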
